A study of Mus musculus with 6 samples.

Results

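Mitochondrial complex I was followed across the cell classes and disease states of the C3Tag mouse mammary gland. The genes were taken by symbol: every feature named Ndufa, Ndufb, Ndufc, Ndufs, Ndufv or Ndufab with a number, plus mt-Nd1 to mt-Nd6 and mt-Nd4l. These were 44 of the 31055 features counted, with 37 encoded in the nucleus on 15 chromosomes and 7 in the mitochondrial DNA. All 44 matched a gene identifier in the GENCODE M21 annotation.

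The samples were 6 single-cell RNA-seq libraries of female C3(1)-Tag mice. Every animal, controls included, carried the SV40 large T antigen transgene under the C3(1) promoter on the FVB/NJ background, so no wild-type gland was compared. There were 2 libraries of each of 3 states. Prepuberty was the whole mammary gland at 5 weeks of age, DCIS was the whole gland at 14 weeks with ductal carcinoma in situ, and Tumor was a palpable tumor at over 18 weeks. Nothing in the labels says that the 2 libraries of a state came from different animals, and the study calls them technical replicates in one place but writes elsewhere of separate specimens and of tumors with different inferred copy number changes. The p-values thus measure the spread between libraries, which may be technical. The labels give a common digestion and kit version for all libraries, whereas the methods name another dissociation kit for the tumors and a later reagent kit for Tumor 2. If so, dissociation and the Tumor state cannot be told apart.

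Complex I is the entry enzyme of the respiratory chain in the inner mitochondrial membrane. Its N module oxidizes NADH, its Q module passes the electrons to ubiquinone, and its membrane module pumps protons. The 14 core subunits are conserved from bacteria and are split evenly here, with 7 encoded in the nucleus and 7 in the mitochondrial DNA. The other 30 genes are Ndufa4 and the supernumerary subunits, which surround and stabilize the core. Mitochondrial genes are transcribed inside the organelle by a polymerase of their own, whereas nuclear subunits are made in the cytosol and imported. Ndufa4 was named as a complex I subunit and was later assigned to complex IV. It is counted among the 37 nuclear genes, and sums without it are given where their order differs.

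By role, the nuclear genes were 8 of the N module, 5 of the Q module, 19 of the membrane module, 4 others (Ndufa6, Ndufa7, Ndufa9 and Ndufab1) and Ndufa4. The promoter sequences of the nuclear genes were read to see what they share apart from their names. RefSeq (GRCm38.p6) promoters, from 250 bases before to 50 after the start, matched 33 of the 44 genes with 35 promoters. The site of nuclear respiratory factor NRF1, GCGCA and GCGC with any 1 base between, was found on either strand in 8 of these 35 (22.9%) and in 4.6% of all 32851 promoters. AAGATGGC, a site of YY1, was found in 7 (20%) and in 2.75% of all. For CCGGAAG (ETS factors), AAGGTCA (estrogen-related receptors) and GGGCGGGG (GC box) the member promoters with a match were 4, 3 and 6, against 8.86%, 4.72% and 17.6% of all promoters. Matches of different motifs may overlap. The letters describe the sequence and were not tested as binding sites. Shown are the 250 bases before the start of Ndufa5, Ndufa8 and Ndufa11, since each passed a test between states or cell classes below and holds the NRF1 letters, which are in capitals. They lie on the minus strand at chr6:24527691-24527940 (Ndufa5, a Q module subunit), on the minus strand at chr2:36049339-36049588 (Ndufa8, membrane module) and on the plus strand at chr17:56717512-56717761 (Ndufa11, membrane module).
Ndufa5: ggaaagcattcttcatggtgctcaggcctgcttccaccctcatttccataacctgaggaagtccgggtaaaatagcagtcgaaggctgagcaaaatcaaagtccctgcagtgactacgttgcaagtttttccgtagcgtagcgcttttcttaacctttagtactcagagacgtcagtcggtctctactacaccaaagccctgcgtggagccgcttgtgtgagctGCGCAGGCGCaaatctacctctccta
Ndufa8: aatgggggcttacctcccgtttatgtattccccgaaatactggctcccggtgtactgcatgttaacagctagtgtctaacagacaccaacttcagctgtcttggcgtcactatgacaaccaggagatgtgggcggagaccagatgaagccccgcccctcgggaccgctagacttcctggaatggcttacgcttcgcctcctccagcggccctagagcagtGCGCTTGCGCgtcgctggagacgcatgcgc
Ndufa11: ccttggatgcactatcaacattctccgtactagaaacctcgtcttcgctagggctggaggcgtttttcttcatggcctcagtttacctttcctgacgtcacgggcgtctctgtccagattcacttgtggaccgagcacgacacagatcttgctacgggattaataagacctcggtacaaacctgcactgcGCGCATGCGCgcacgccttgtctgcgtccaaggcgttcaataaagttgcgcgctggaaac
In these the capitals end 17, 21 and 51 bases before the RefSeq start. In GENCODE M21, Ndufa5 and Ndufa8 begin further upstream, at 24528013 and 36049406, so there their capitals lie inside the gene.

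Of 23835 barcodes, 546 had too few genes, 1045 (4.49% of those with enough genes) held over 10% mitochondrial UMIs and 707 were removed as doublets, which left 21537 cells with 237053414 UMIs and a median of 6541 to 13631.5 UMIs per cell by library. Library pairs shared 9 to 39 cell barcodes. The mitochondrial limit bears on the mt-Nd genes directly, since it removes the cells in which they are highest. It removed 1.5% to 4.38% of cells from the Prepuberty and DCIS libraries, 6.57% from Tumor 1 (exact 95% binomial interval 5.89% to 7.31%) and 9.48% from Tumor 2 (8.44% to 10.6%). These intervals cover counting error only. Among epithelial-like cells, clustered with the limit at 20%, 0.869% to 3.08% lay over 10%. Of the cells left unnamed in that clustering, 1.97% to 11.9% by library lay over 10%. Cells over 20% were not clustered, so their class is not known. Clusters were made without complex I genes or any other mitochondrial gene and were named from markers, and 4 classes had enough cells in every library: epithelial-like (8110 cells), fibroblast-like (6238), endothelial-like (2252) and macrophage-like (1206). Another 1508 cells stayed unnamed. The smallest group in each was 95 epithelial-like cells (Prepuberty 2), 177 fibroblast-like (Tumor 1), 32 endothelial-like (Tumor 2) and 83 macrophage-like (Prepuberty 2). Levels below are in CPM, the UMIs of a gene scaled to a common total of the class in a library, divided by the TMM factor (a scale factor for RNA composition), and each UMI stands for a captured molecule rather than a length of transcript.

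Nuclear complex I genes differed widely in level from each other. In epithelial-like cells Ndufa4 was highest at 1287 ± 322 TMM-scaled CPM (SD, n = 6 libraries), followed by Ndufa2 at 569 ± 114 and Ndufa7 at 480.2 ± 124. These 3 genes held 26.0% of the nuclear sum and Ndufa4 alone held 14.3%. Ndufs1, the largest N module core subunit, was lowest at 23.3 ± 7.71, and the highest mean level was 55.4 times the lowest. The median nuclear gene was at 176. Neighbors in this order were mostly closer than their spread over libraries: Ndufa13 (460 ± 112) and Ndufa6 (445 ± 112) could not be ordered.

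Among the 7 mitochondrially encoded genes, levels also ranged widely. mt-Nd1 and mt-Nd4, both subunits of the membrane arm, led with mean levels of 1869.7 ± 745 and 1396 ± 292 in epithelial-like cells, and mt-Nd6 was lowest at 10.2 ± 11.9. On the mitochondrial chromosome of mm10, mt-Nd4l (9877 to 10173) and mt-Nd4 (10167 to 11544) overlap on the plus strand, and mt-Nd5 (11742 to 13565, plus) overlaps mt-Nd6 (13552 to 14070, minus), so UMIs at the overlaps are uncertain. Capture at poly(A) also bears on levels between these genes, and its part was not tested.

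The summed mitochondrially encoded level in epithelial-like cells was lowest in DCIS. It was 4661 and 4815 TMM-scaled CPM in Prepuberty 1 and 2, 2722 and 2703 in DCIS 1 and 2, and 5469 and 5545 in Tumor 1 and 2. The states did not overlap, and the Tumor mean was 2.03 times the DCIS mean. The summed nuclear level was 7931 and 7947 in Prepuberty, 9468 and 8774 in DCIS and 10421 and 9345 in Tumor. Here the DCIS and Tumor libraries overlapped, and both states lay above Prepuberty. Without Ndufa4 the sum was 6973 and 6885 in Prepuberty, 7646 and 7531 in DCIS and 8917 and 8211 in Tumor, and the states did not overlap. The ratio of mitochondrially encoded to nuclear UMIs was 0.59 and 0.61 in Prepuberty, 0.29 and 0.31 in DCIS and 0.52 and 0.59 in Tumor, which needs no scaling. Without the TMM factor, which was 1.32 in Tumor 2, the summed nuclear level was 7247 and 8092 in Prepuberty, 8571 and 7630.0 in DCIS and 10811 and 12297 in Tumor, so that Tumor lay above DCIS and DCIS overlapped Prepuberty. Sums over the genes were not tested. The epithelial-like class was also made up of different clusters in each state. A cluster led by Tph1, Cxcl15 and Ptn, with the hormone-sensing genes Cited1 and Prlr, held 36.5% and 42.1% of it in Prepuberty, 10.0% and 29.2% in DCIS and 0.289% and 2.28% in Tumor. A cluster led by Pthlh held 27.1% and 15.2% in Tumor and 0% to 7.59% elsewhere, and a cluster led by Acan, kept in the tumors alone by the rule on markers, held 9.46% and 17.3% there. The 0% is Prepuberty 2, whose 52 cells of the Pthlh cluster were left out of the class by the same rule. The part of this makeup in the epithelial-like comparisons between states was not tested.

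**Figure D1:**
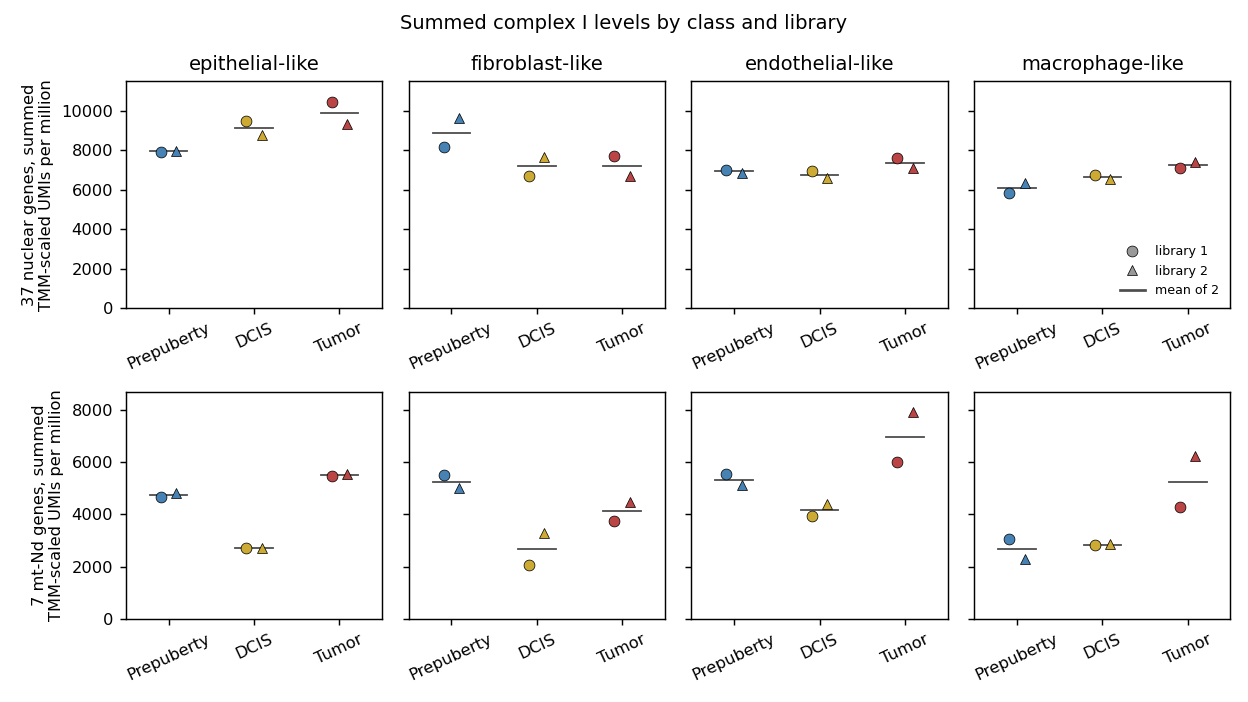
Summed TMM-scaled CPM (y axis, linear from 0) of the 37 nuclear genes (upper row) and the 7 mt-Nd genes (lower row) by state (x axis) in 4 cell classes. Each point is a library and each line the mean of 2, and the DCIS libraries of epithelial-like cells sit at 2722 and 2703 in the lower row, below all others of that class.

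The mt-Nd share of all mitochondrial UMIs moved with the state as well. In epithelial-like cells it was 14.0% and 18.7% in Prepuberty, 13.3% and 11.7% in DCIS and 20.7% and 24% in Tumor. Both Tumor libraries lay above the other 4. All mitochondrial genes together made 1.85% and 2.01% of epithelial-like UMIs in DCIS and 2.74% and 3.04% in Tumor.

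Gene by gene, mt-Nd1 was at 2163 and 2587 in Prepuberty, 882 and 986 in DCIS and 2460.3 and 2139 in Tumor. mt-Nd2 was at 689 and 707, then 381 and 427, then 995 and 1069 in the same order. mt-Nd3 was at 179 and 122, then 56.6 and 56.2, then 172 and 182. For these 3 genes of the membrane arm, both DCIS libraries lay below both Tumor and both Prepuberty libraries, as they did for mt-Nd4 and mt-Nd6. mt-Nd4 was at 1442 and 1243, then 1191 and 1047, then 1625 and 1827. mt-Nd5, a core proton-pumping subunit like mt-Nd2 and mt-Nd4, was at 149 and 113, then 179 and 153, then 168 and 201. The DCIS and Tumor libraries of mt-Nd5 overlapped. mt-Nd4l was at 29.8 and 37.2, then 30.4 and 30.1, then 42.3 and 93.9. mt-Nd6 was at 8.88 and 6.03, then 2.39 and 3.60, then 6.25 and 34.1. The level of mt-Nd4l and mt-Nd6 in Tumor 2 stood apart from every other library, Tumor 1 included.

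**Figure D2:**
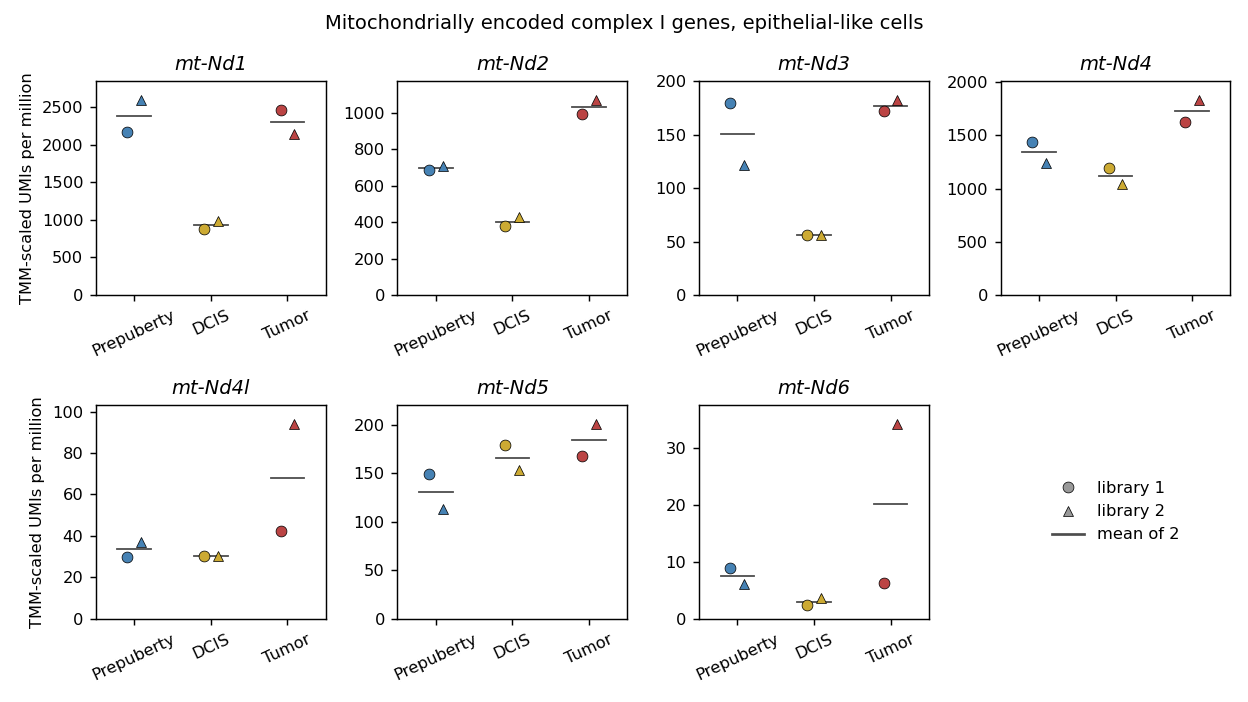
TMM-scaled CPM (y axes, linear from 0) of the 7 mitochondrially encoded genes in epithelial-like cells of each library, by state (x axis). Points are libraries and lines the mean of 2, and mt-Nd1, mt-Nd2, mt-Nd3, mt-Nd4 and mt-Nd6 show both DCIS libraries lowest, while mt-Nd6 is at 34.1 in Tumor 2 and at most 8.88 elsewhere.

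The comparison of Tumor with DCIS sets palpable tumors against whole glands with carcinoma in situ from younger mice. In epithelial-like cells mt-Nd2 and mt-Nd3 rose by 1.35 (SE 0.28) and 1.65 (SE 0.30) on the log2 scale, with adjusted p = 0.0463 and 0.0381 by edgeR's quasi-likelihood test over 13349 genes. They were the 2 of 44 complex I genes that passed (4.55%), where 3.91% of all genes tested passed and 1.36% were higher. The fold change was positive for 7 of 7 mitochondrially encoded genes, with a median of 1.30, and the median was 0.17 over the nuclear genes and 0.08 over all genes. Both Tumor libraries lay above both DCIS libraries for 6 of 7 mitochondrially encoded and 14 of 37 nuclear genes, and for 30.7% of all genes. They lay below for 0 and 4, and for 27.3% of all genes. Both calls were lost when either Prepuberty or either DCIS library was left out (0 complex I genes and 0% to 0.252% of all genes called), with the replicate number as a block (adjusted p = 0.0710 and 0.0572, edgeR) and with only these 2 states in the fit (0.0980 and 0.0739). Without Tumor 1 and Tumor 2, 8 and 5 passed, where 14.4% and 11.1% of all genes did. The 4 nuclear genes with both Tumor libraries below both DCIS libraries were Ndufb5, Ndufb11, Ndufa6 (471 and 532 in DCIS, 341 and 271 in Tumor) and Ndufa7 (484 and 571 in DCIS, 345 and 314 in Tumor). Ndufa6 binds the acyl carrier protein Ndufab1 in the peripheral arm. Ndufa6 and Ndufa7 did not pass, with log2 differences of -0.71 and -0.68. The samples also differed in other ways: the summed level of myoepithelial markers in epithelial-like cells was 209 to 451 CPM in DCIS, 504 in Tumor 1 and 2173 in Tumor 2, and its part in these results was not tested.

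Of the genes around complex I in the same comparison, 0 of 15 assembly factors, 0 of 4 complex II, 0 of 9 complex III, 0 of 10 complex IV and 0 of 14 complex V nuclear genes passed. The 6 other mitochondrially encoded genes also had 0 calls. Vegfa, a growth factor induced by hypoxia, was the single call among 8 mitophagy and hypoxia genes, with a log2 change of 2.47 (SE 0.50, adjusted p = 0.0436, edgeR).

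For DCIS against Prepuberty in epithelial-like cells, edgeR called 0 complex I genes and 0% of all genes, with 4 complex I genes and 1797 of all genes at an unadjusted p under 0.05. The smallest p values belonged to mt-Nd3 (log2 difference -1.42, SE 0.30, adjusted p = 0.214, edgeR) and mt-Nd1 (-1.35, SE 0.30, adjusted p = 0.233, edgeR). DESeq2 called these 2 genes as lower, where it called 2.58% of all genes. The nuclear median was 0.14 and the mitochondrially encoded median -0.79, with opposite signs. Both DCIS libraries lay above both Prepuberty libraries for 17 nuclear genes and below for 5, where 29.7% and 26.8% of all genes did so. For the mitochondrially encoded genes these counts were 1 and 5.

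For Tumor against Prepuberty in epithelial-like cells the call was in the Q module. Ndufa5, a supernumerary Q module subunit, was at 102 and 130.1 in Prepuberty, 129 and 126 in DCIS and 252 and 307 in Tumor. Both Tumor libraries lay above the other 4, and Ndufa5 rose by 1.27 on the log2 scale against Prepuberty (SE 0.29, adjusted p = 0.0397, edgeR). It was 1 of 44 complex I genes, where 8.68% of all genes passed and 4.2% were higher, and was not called when either Prepuberty or either DCIS library was left out (0% to 3.11% of all genes called), with the replicate number as a block (adjusted p = 0.0561, edgeR) or with only these 2 states in the fit (0.0992). Ndufb7, a membrane module subunit, was at 150.0 and 189 in Prepuberty, 162 and 151 in DCIS and 326 and 411 in Tumor, without passing. Ndufa9, at the junction of the peripheral and membrane arms, was at 42.3 and 33.2, then 40.3 and 38.8, then 143 and 72.1, also without passing. Over the 37 nuclear genes, both Tumor libraries lay above both Prepuberty libraries in 21 and below in 3, where 31.1% and 26.7% of all genes did so. DESeq2 called 8 complex I genes here (6 higher, 2 lower), where it called 19.0% of all genes.

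In fibroblast-like cells both TMM-scaled sums were highest in Prepuberty, which did not hold without scaling. The summed nuclear level was 8171 and 9612 in Prepuberty, 6699 and 7656 in DCIS and 7700.0 and 6705 in Tumor. The summed mitochondrially encoded level was 5499.6 and 4997, then 2054 and 3290.3, then 3749 and 4477. For both sums, both Prepuberty libraries lay above the other 4. Against Tumor, the higher mitochondrially encoded sum of Prepuberty rested on mt-Nd1, at 3707 and 3484 in Prepuberty and 1978 and 1859 in Tumor. mt-Nd4, the next highest, was at 958 and 805 in Prepuberty and 1080 and 1437.5 in Tumor. Without the TMM factor, which was 1.51 in Tumor 2, the nuclear sums were 7564 and 9442 in Prepuberty, 5360.2 and 6337 in DCIS and 8443 and 10153 in Tumor, so that Tumor overlapped Prepuberty with the higher mean. The unscaled mitochondrially encoded sums were 5091 and 4909, then 1643 and 2724, then 4111 and 6779, where Tumor also overlapped Prepuberty. On either scale both DCIS libraries lay below both Prepuberty libraries. For DCIS against Prepuberty the nuclear median was -0.38 (all genes -0.04), and both DCIS libraries lay below both Prepuberty libraries for 22 of 37 nuclear and 6 of 7 mitochondrially encoded genes, where 25.7% of all genes did so. They lay above for 2 nuclear genes and 0 mitochondrially encoded ones, where 24.2% of all genes did so. edgeR called 0 complex I genes there and 0% of all genes, with 3 complex I and 966 of all genes at an unadjusted p under 0.05. DESeq2 called 0 as well, and 0.396% of all genes. The smallest p values were those of mt-Nd1 (3707 and 3484 in Prepuberty, 1092 and 2081 in DCIS) and mt-Nd3 (145 and 103, then 52.1 and 65.1), both with adjusted p = 0.613 (edgeR).

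For Tumor against DCIS in fibroblast-like cells 0 complex I genes passed, where 6.99% of all genes did, with 7 complex I and 3559 of all genes at an unadjusted p under 0.05. mt-Nd4l was at 12.7 and 22.2 in DCIS and 33.1 and 76.8 in Tumor, a log2 difference of 1.66 (SE 0.50, adjusted p = 0.0860, edgeR), and mt-Nd3 differed by 1.21 (adjusted p = 0.0990, edgeR). Both Tumor libraries lay above both DCIS libraries for 10 nuclear and 5 mitochondrially encoded genes and below for 7 and 0, where 31.5% and 28.2% of all genes did so. With the replicate number as a block mt-Nd4l passed, where 10.7% of all genes did, and DESeq2 called 3 genes, where it called 17.6% of all genes. Without Tumor 1, edgeR called 6 (5 higher, 1 lower), where it called 16.8% of all genes. Against Prepuberty the Tumor comparison had 0 complex I calls, where 3.76% of all genes passed, with 2 complex I and 2961 of all genes at an unadjusted p under 0.05 and 0 complex I calls by DESeq2, which called 13.2% of all genes. Both Tumor libraries lay below both Prepuberty libraries for 21 of 37 nuclear genes and above for 3, where 25.1% and 25.6% of all genes did so. Of the 7 mitochondrially encoded genes 1 lay below and 3 above, and the log2 difference was positive for 6, all but mt-Nd1, with a median of 0.52. There the smallest p values were those of Ndufa12 (-0.95, adjusted p = 0.184) and Ndufa4 (-0.79, adjusted p = 0.198), an N module subunit and the gene later assigned to complex IV. The fibroblast-like cells of the tumors also held the T antigen, at 21.9 CPM in Tumor 1 and 57.0 in Tumor 2, against 0 to 0.738 in the other libraries and 266 and 61.8 in epithelial-like cells of the same tumors. Myoepithelial markers summed to 2560 CPM in fibroblast-like cells of Tumor 1, 423 in Tumor 2 and 23.5 to 69.2 elsewhere. A fibroblast cluster led by Crabp1 and Col1a1 held 54.2% and 31.2% of the class in Tumor and 3.70% to 21.8% elsewhere. The 54.2% is of 177 cells of Tumor 1, from which the rule on markers had left out 92 cells of a fibroblast cluster led by Ccl2. The part of these in the values was not tested.

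In endothelial-like cells, for Tumor against DCIS 6 complex I genes rose (13.6%), where 14.4% of all genes passed and 7.44% were higher. mt-Nd4l was at 27.6 and 37.2 in DCIS and 78.0 and 158 in Tumor and rose by 1.78 on the log2 scale (SE 0.36, adjusted p = 0.0140, edgeR). Ndufa9 was at 28.0 and 31.7 in DCIS and 62.4 and 93.1 in Tumor and rose by 1.32 (SE 0.28, adjusted p = 0.0185, edgeR). The other calls were the membrane module subunits Ndufa11, Ndufb10 and Ndufb11 and the N module subunit Ndufv3, with log2 changes of 0.87 to 1.04. Ndufa11, which holds the membrane arm together, was at 88.9 and 114 in DCIS and 221 and 193 in Tumor. Ndufv3 was at 73.8 and 82.4 in DCIS and 166 and 136 in Tumor, and the 2 states overlapped for none of the 6 genes. Both Tumor libraries lay above both DCIS libraries for 20 of 37 nuclear and 4 of 7 mitochondrially encoded genes and below for 5 and 0, where 28.6% and 31.7% of all genes did so. Without DCIS 1, 0 passed (5.79% of all genes), without DCIS 2, 1 (mt-Nd4l, 6.96%), without either Prepuberty library, 2 (mt-Nd4l and Ndufa9, 11.6% and 11.4%), and without Tumor 1, 3 (7.46%). A cluster led by Ackr1 and Selp held 9.21% and 12.5% of the class in Tumor and 32.1% to 60.6% elsewhere. Cycling markers summed to 347 and 772 CPM in the endothelial-like cells of Tumor 1 and 2 and to 4.80 to 47.0 elsewhere, and the part of both was not tested. Among the neighbors, Ndufaf3 (1 of 15 assembly factors) and Slirp, a stabilizer of mitochondrial mRNA (1 of 11 genes of mitochondrial transcription and biogenesis), rose by 1.27 and 0.91 on the log2 scale. Slc2a1, a glucose transporter (1 of 7 mitophagy and hypoxia genes), was lower, with a log2 change of -1.84.

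For Tumor against Prepuberty mt-Nd4l passed in endothelial-like cells (43.5 and 52.4 in Prepuberty, log2 change 1.22, SE 0.34, adjusted p = 0.0484, edgeR) as the single complex I call, where 12.9% of all genes passed and 7.53% were higher. It was not called when any of the 6 libraries but Tumor 1 was left out, with RLE scaling or with only these 2 states in the fit. Here 16 nuclear genes had both Tumor libraries above both Prepuberty libraries and 5 below, where 27.3% and 31% of all genes did. For DCIS against Prepuberty 0 passed by edgeR and 0% of all genes, with 5 complex I and 1311 of all genes at an unadjusted p under 0.05, and DESeq2 also called 0, and 0.607% of all genes. Ndufa11 and Ndufa9 had the smallest p values there, with log2 differences of -0.68 and -0.66. Both DCIS libraries lay below for 20 of 37 nuclear genes and above for 6, where 26.2% and 25.8% of all genes did so. The summed nuclear level was 7009 and 6864 in Prepuberty and 6940 and 6583 in DCIS, which overlapped. Without Ndufa4 the sum was 6313 and 6338 in Prepuberty and 6266 and 5994 in DCIS, without overlap. With Ndufa4 but without the TMM factor the sums were 6918 and 7857 in Prepuberty and 5539 and 6002 in DCIS, also without overlap.

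In macrophage-like cells the summed mitochondrially encoded level was highest in Tumor. It was 3063 and 2289 in Prepuberty, 2823 and 2861 in DCIS and 4265 and 6236 in Tumor. The nuclear sum was 5813 and 6320.1, then 6762 and 6554, then 7094 and 7424, with no overlap between states. Without TMM scaling the nuclear sum was 4808 and 6655 in Prepuberty, 5483 and 5704 in DCIS and 7823 and 10953 in Tumor, so DCIS and Prepuberty overlapped and the DCIS mean was the lower. edgeR tested 43 genes, as mt-Nd6 had too few UMIs, and called 0 complex I genes in the 3 comparisons, where 0.129% (DCIS against Prepuberty), 6.34% (Tumor against DCIS) and 6.01% (Tumor against Prepuberty) of all genes passed. At an unadjusted p under 0.05 there were 0, 6 and 6 complex I genes and 821, 2026 and 1635 of all genes, and DESeq2 called 0 in each, with 0.682%, 5.76% and 6.22% of all genes. For Tumor against DCIS the medians were 0.38 over nuclear and 1.11 over mitochondrially encoded genes, and 0.06 over all genes. mt-Nd2 was at 300.5 and 298 in DCIS and 500.0 and 938 in Tumor (log2 difference 1.28, adjusted p = 0.0894, edgeR), and Ndufa10, a membrane module subunit, differed by 1.12 (adjusted p = 0.0805, edgeR). Against Prepuberty mt-Nd2 and mt-Nd3 differed by 1.17 and 1.34 (adjusted p = 0.134 and 0.146, edgeR). Ndufa2 and Ndufa6 had the smallest p values for DCIS against Prepuberty, with differences of 0.74 and 0.61. For DCIS against Prepuberty 7 nuclear genes had both libraries above and 5 below, where 23.7% and 20.3% of all genes did so. For Tumor against DCIS these were 24 and 3 of 37 (30.7% and 28% of all genes), and against Prepuberty 20 and 1 (27.3% and 22.4%). Neutrophil markers summed to 948 and 4947 CPM in the macrophage-like cells of Tumor 1 and 2 against 63.4 to 354 elsewhere, and their part was not tested.

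**Figure D3:**
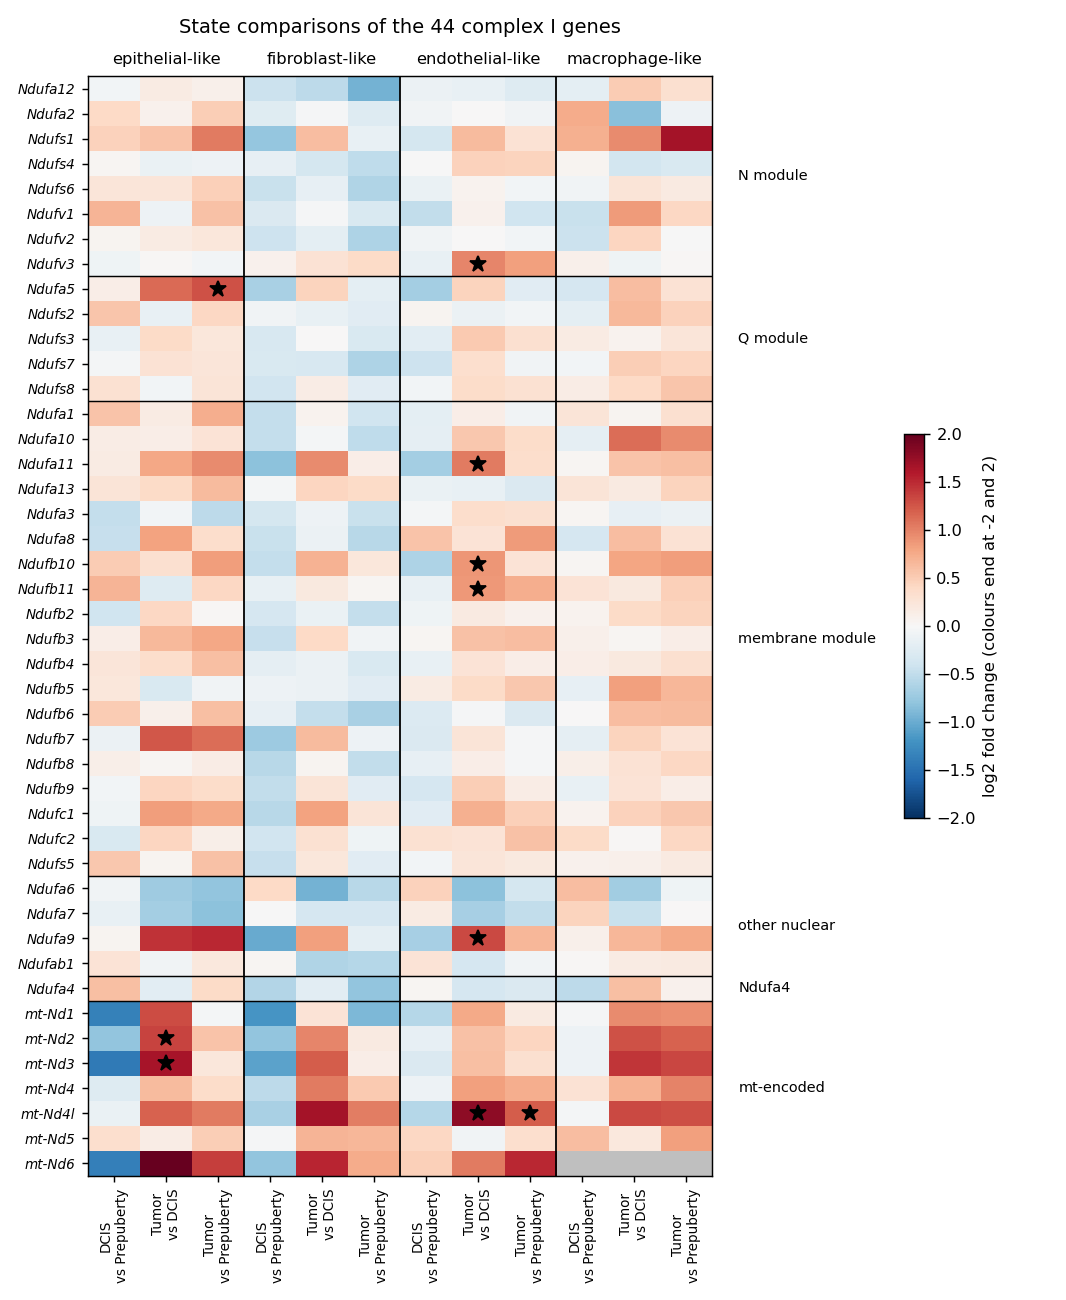
Log2 fold change (color, ends at -2 and 2) of the 44 genes (rows, grouped by role) in 3 state comparisons of 4 cell classes (columns), with a star where the adjusted p was under 0.05 and grey where a gene was not tested. The 10 stars are 2 and 1 in epithelial-like and 6 and 1 in endothelial-like cells, and the lower block of mt-Nd genes is red in each Tumor vs DCIS column except for mt-Nd5 in endothelial-like cells and mt-Nd6 in macrophage-like cells, which was not tested.

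mt-Nd6 was highest in Tumor 2 in each of the 4 classes. It was at 34.1 in epithelial-like, 29.6 in fibroblast-like, 111 in endothelial-like and 43.1 in macrophage-like cells of Tumor 2, and at 6.25, 4.99, 10.4 and 5.57 in the same classes of Tumor 1. In Tumor 1 it lay inside or below the range of the 4 gland libraries in each class. mt-Nd4l was also highest in Tumor 2, at 93.9, 76.8, 158 and 99.2 in the same 4 classes, and at 42.3, 33.1, 78.0 and 19.1 in Tumor 1. Tumor 2 is the library for which the methods name a later reagent kit, and kit and animal cannot be told apart in it.

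Whether the state changes differed between classes was tested for each gene as an interaction of state and class with the library as a block. The change from Prepuberty to Tumor in Ndufa5 was larger in epithelial-like than in endothelial-like cells by 1.58 on the log2 scale (SE 0.33, adjusted p = 0.00650, edgeR). In endothelial-like cells Ndufa5 was at 119.8 and 152 in Prepuberty and 89.7 and 150.4 in Tumor, so the states overlapped. The difference passed without each library in turn (adjusted p = 0.0059 to 0.0415, edgeR). Ndufb7 also differed, by 1.23 (SE 0.36, adjusted p = 0.0351, edgeR), and did not pass without Prepuberty 1 (0.204), without Tumor 2 (0.148) or with RLE scaling (0.0681). These were 2 of 44 genes, where 11.4% of all genes passed. In the other 8 tests of this kind edgeR called 0 complex I genes, with 4 to 16 at an unadjusted p under 0.05 beside 1460 to 3500 of all genes, and 0% to 7.11% of all genes passed. Between epithelial-like and fibroblast-like cells the difference of changes from Prepuberty to Tumor was positive for 33 of 37 nuclear genes, with a median of 0.76 against 0.04 over all genes and a smallest adjusted p of 0.0584 (edgeR).

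Cell classes of the same library were compared next. For each pair of classes, and for cycling against other cells, the TMM factors were computed again over the libraries of both, so that the level of the same cells differs from one comparison to the next. Against endothelial-like cells, epithelial-like cells had 12 complex I genes higher and 3 lower of 44 (34.1%), where 44.9% of all genes passed (24.1% higher, 20.8% lower), and the summed nuclear level was higher in 6 of 6 libraries (9077 ± 896 and 6944 ± 468, SD, n = 6). Ndufa4 was at 982 and 1086 in Prepuberty, 1817 and 1270.1 in DCIS and 1515 and 1128 in Tumor in epithelial-like cells, and at 458 to 699 in endothelial-like cells of the same 6 libraries. The classes did not overlap, with a log2 difference of 1.16 (SE 0.19, adjusted p = 0.000977, edgeR). Ndufb9, Ndufa13 and Ndufa10 of the membrane module and Ndufa7 were also higher, by 0.84, 0.78, 0.59 and 0.76. Ndufa8, a membrane-arm subunit, went the other way, at 90.1 to 196 in epithelial-like and 185 to 409 in endothelial-like cells (-1.18, SE 0.21, adjusted p = 0.00154, edgeR). It was lower in 6 of 6 libraries. mt-Nd1 and mt-Nd6 were also lower, with log2 differences of -0.71 and -1.79. Without DCIS 2 the count of calls was 6, where 33.6% of all genes passed. Among the neighbors 4 assembly factors were higher (Acad9, Ndufaf3, Ndufaf7, Timmdc1) and 2 lower (Ndufaf4, Ndufaf5) of 15, and 4 of 14 complex V and 2 of 10 complex IV genes were higher with 0 lower.

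Against fibroblast-like cells, mt-Nd4 and Ndufa4 were higher in epithelial-like cells and Ndufa3, Ndufa8, Ndufb2 and Ndufb6 of the membrane module were lower, which made 6 of 44 (13.6%), where 40% of all genes passed (20.4% higher, 19.6% lower). Ndufa4 was at 879 to 1667 in epithelial-like and 457 to 922 in fibroblast-like cells and was higher in 6 of 6 libraries (0.84, SE 0.24, adjusted p = 0.0237, edgeR). Its ranges overlapped through Prepuberty, in which it was 879 and 979 in epithelial-like and 819.8 and 922 in fibroblast-like cells. Ndufa3 was at 89.2 to 162 and 127 to 226 and was lower in 6 of 6 libraries (-0.56, SE 0.14, adjusted p = 0.0154, edgeR). Without DCIS 2 no member passed (26.1% of all genes), and without DCIS 1, Prepuberty 1 or Prepuberty 2 the counts were 1, 2 and 2, where 27.9%, 27.2% and 34.8% of all genes passed. The paralog Ndufa4l2, which is induced by hypoxia and is not among the 44, was lower in epithelial-like cells (log2 difference -4.86, SE 0.77, adjusted p = 0.00202, edgeR).

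Against macrophage-like cells, Ndufa4 was the single gene higher in epithelial-like cells, and 8 were lower (9 of 44, 20.5%), where 48.7% of all genes passed (26.4% higher, 22.2% lower). Ndufa4 was at 795 to 1444 in epithelial-like and 346 to 579 in macrophage-like cells, without overlap (1.17, SE 0.23, adjusted p = 0.00171, edgeR). Ndufv3 of the N module was at 87.5 to 129 and 183 to 287, also without overlap (-1.14, SE 0.20, adjusted p = 0.000720, edgeR). Ndufa3, Ndufa1 and Ndufc2 of the membrane module and Ndufs8, an iron-sulfur subunit of the Q module, were lower, with log2 differences of -0.92, -0.87, -0.75 and -0.68. The median of all genes in this comparison was 0.15 and that of the nuclear complex I genes -0.30. Of the neighbors, 3 of 4 complex II, 2 of 9 complex III, 2 of 10 complex IV and 3 of 14 complex V nuclear genes were lower and 0 higher.

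**Figure D4:**
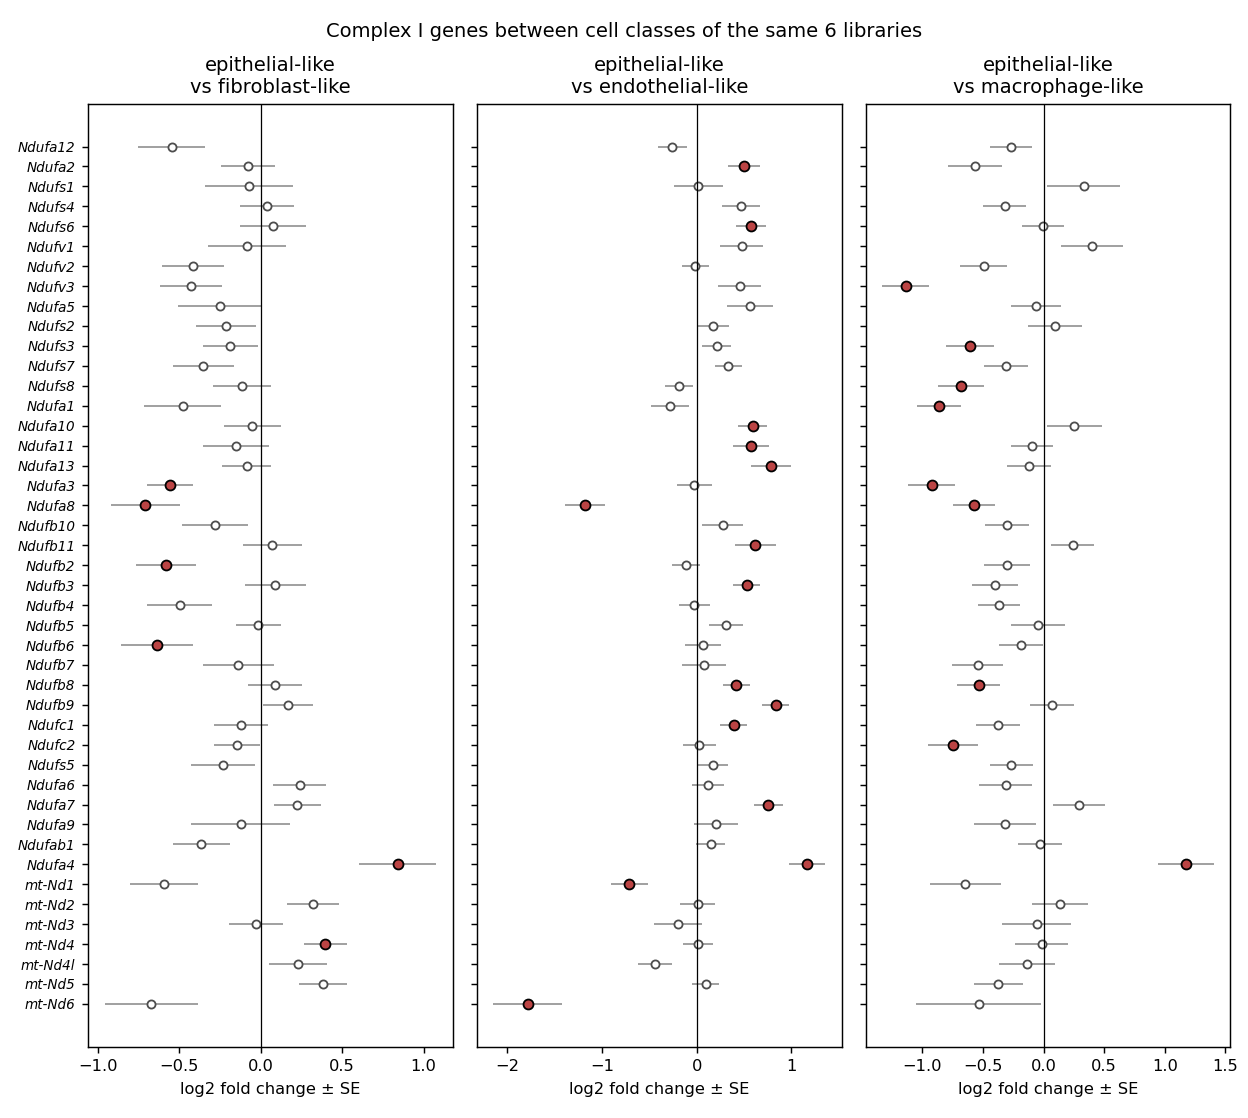
Log2 fold change with its SE (x axis) of the 44 genes (rows) in epithelial-like cells against 3 other classes of the same 6 libraries, with filled red points where the adjusted p was under 0.05. Ndufa4 lies right of 0 in each panel, at 0.84, 1.16 and 1.17.

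The epithelial-like cluster richest in cycling markers was compared with the other epithelial-like cells in 5 libraries, since Prepuberty 2 held 8 of its cells. The 7 markers summed to 1474 to 4457 CPM in it and to 360 to 1381 CPM in the other cells of these libraries. The other cells held cycling markers too: in 3 of their clusters all 7 markers were at 2 or more times the median cluster, as in the cycling one, and in another 2 it was 6 and 5. The cycling cells, a cluster led by Cenpf, Ube2c and Ccnb1, had a summed mitochondrially encoded level of 4709 in Prepuberty 1, 2178 and 2374 in DCIS and 5034 and 5088 in Tumor. The other cells of these libraries had 4857, 3159.9, 3005, 5769 and 5625, so the TMM-scaled level was lower in cycling cells in 5 of 5 libraries. Without scaling it was higher in the cycling cells of Prepuberty 1 (4422 against 4217), as was the ratio of mitochondrially encoded to nuclear UMIs (0.60 against 0.58), and both were lower in cycling cells of the other 4 libraries. mt-Nd3 was at 174, 41.2, 47.7, 157 and 163 in cycling and 189, 69.0, 63.2, 182 and 187 in other cells (-0.33, SE 0.10, adjusted p = 0.0858, edgeR). mt-Nd4 differed by -0.26 (SE 0.09, adjusted p = 0.106, edgeR), and the difference was negative for 7 of 7 mitochondrially encoded genes with a median of -0.22. The TMM-scaled nuclear sum was higher in cycling cells in 4 of 5 libraries, at 7844 to 10833 against 8312 to 10508, and the unscaled one in 5 of 5. edgeR called 0 of 44 genes, where 5.84% of all genes passed, with 12 complex I and 2787 of all genes at an unadjusted p under 0.05, and DESeq2 also called 0, with 7.72% of all genes. Ndufaf3 was higher by 0.60 on the log2 scale and Bnip3, Slc2a1 and Vegfa were lower (-0.68, -0.75 and -0.72) among the neighbors.

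**Figure D5:**
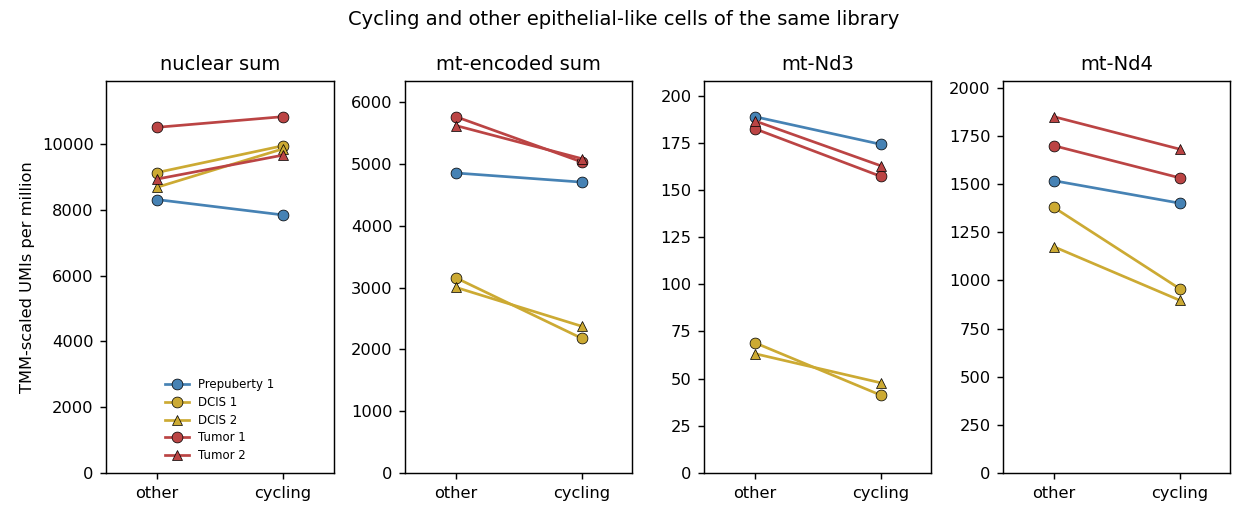
TMM-scaled CPM (y axes, linear from 0) in other and cycling epithelial-like cells of the same library, joined by a line, for the summed nuclear and mitochondrially encoded genes, mt-Nd3 and mt-Nd4. The mitochondrially encoded sum is lower in cycling cells in 5 of 5 libraries with TMM scaling, and in 4 of 5 without it.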

How the data were processed

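Raw UMI counts per gene and cell, deposited by the authors, were read from 6 matrices made with Cell Ranger 3.0.2 per the file headers. The submitters' processing notes also name mm10, STAR, SAMtools, Picard and Salmon without roles. The complex I genes and the gene lists were chosen with earlier results of these data known. Cells needed 200 genes and at most 10% mitochondrial UMIs. Doublets were removed by Scrublet score (scanpy 1.11.5) at a set rate of 0.8% per 1000 cells, since its own threshold marked 31 cells. Seurat 5.3.0 (R 4.3.3) integrated the libraries over 2000 variable genes without complex I or mitochondrial genes. A cluster took the name of a type with at least 3 markers at 2 times the median cluster. A library's cells of a cluster stayed in the class only where at least 3 of its markers were each seen in 30% of them. This rule and the reference to the median cluster were chosen after seeing the data.

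Counts were summed per class and library with at least 10 cells and tested with edgeR 4.0.16 (quasi-likelihood, TMM, filterByExpr, two-sided, Benjamini-Hochberg over all genes, threshold 0.05). State was the only term, and comparisons between classes had the library as a block. Named are the 7 mitochondrially encoded genes in epithelial-like cells and, per comparison, up to 6 genes with the smallest adjusted p and up to 3 with the largest change in each direction, or the 2 smallest p where none passed. Others were chosen after their values were seen. Libraries held 28512209 to 57143434 UMIs in kept cells. Alternatives were DESeq2 1.42.0, RLE scaling, no filter, other mitochondrial limits, no doublet removal, no integration, a replicate block and leaving out each library. The interaction tests and TMM-scaled levels were added after seeing the data. The tests were checked on simulated data. Promoters came from RefSeq and were searched on both strands.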

Additional observations from a re-analysis of the deposited data

Results flagged for a closer look

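Ndufa5 and Ndufb7 changed differently from Prepuberty to Tumor in epithelial-like and endothelial-like cells by the interaction test. Ndufa5 changed by 1.27 in epithelial-like and -0.23 in endothelial-like cells on the log2 scale, with a fitted difference of 1.58. Ndufb7 changed by 1.12 and -0.030, with a fitted difference of 1.23. The fitted differences come from a joint model and are not the plain subtraction of the 2 changes.

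Some sums of TMM-scaled levels had both libraries move one way in 1 class and the other way in another, and these differences were not tested. Several turned or were lost without the scaling. The nuclear sum in DCIS was 1.15 times that of Prepuberty in epithelial-like, 1.1 times in macrophage-like and 0.807 times in fibroblast-like cells, and without TMM scaling 1.06, 0.976 and 0.688 times. In Tumor it was 1.24 times that of Prepuberty in epithelial-like, 1.06 times in endothelial-like, 1.20 times in macrophage-like and 0.810 times in fibroblast-like cells, and without scaling 1.51, 1.1, 1.64 and 1.09 times. The mitochondrially encoded sum in Tumor was 1.16 times that of Prepuberty in epithelial-like, 1.31 times in endothelial-like, 1.96 times in macrophage-like and 0.784 times in fibroblast-like cells, and without scaling 1.42, 1.37, 2.81 and 1.09 times. The opposite direction of the Tumor sums in fibroblast-like cells was lost without TMM scaling, and that of the mitochondrially encoded sum rested on mt-Nd1, since the other 6 genes had positive log2 differences with the scaling, none of which passed.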

How the results depend on the processing

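No log2 fold change of a gene named by the rule changed direction under the alternatives run. Counts of complex I genes called depended on the tool and on single libraries. In epithelial-like cells the counts for DCIS against Prepuberty, Tumor against DCIS and Tumor against Prepuberty were 0, 2 and 1, against 2, 8 and 8 with DESeq2 (which called 2.58%, 14% and 19% of all genes, a share given in brackets for the other settings) and 2, 8 and 5 with no filter on low counts (3.19%, 10.7% and 13.9%). Tumor against DCIS gave 0 where mitochondrial genes were left out, since these were then not tested (3.89%), and 0 with only the 2 states compared (0%). Tumor against Prepuberty gave 2 at a mitochondrial limit of 5%, at 20%, without integration and with no doublet removal (8.32% to 9.57%), and 0 with only the 2 states (3.52%). In fibroblast-like cells Tumor against DCIS gave 3 with DESeq2 (17.6%) and 2 with no filter (14.2%). In endothelial-like cells Tumor against Prepuberty gave 2 with DESeq2 and with no filter (12.9% each), and 0 with RLE scaling, without mitochondrial genes, at the 20% limit, with no doublet removal and with only 2 states (11.6% to 12.9%). Tumor against DCIS there gave 3 with no doublet removal (13.5%), 4 at the 20% limit (14.0%) and with only 2 states (13.9%), 8 with DESeq2 (14.4%) and 9 with the replicate block (17.4%), against 6. In macrophage-like cells both Tumor comparisons gave 2 with no filter (7.45% and 6.61%). Epithelial-like against fibroblast-like cells gave 10 with DESeq2 (48.1%) and 3 with no filter (25.2%), and against macrophage-like cells 4 with no filter (29.3%). Cycling against other cells gave 3 with no filter (8.10%) and 1 at the 20% limit (7.22%). Without integration it gave 0 (4.55%) but rested on 2 libraries, since the cycling cluster then came almost wholly from Tumor 2. The causes were not tested.

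With a replicate block the epithelial-like Tumor comparisons gave 0 and 0 (1.36% and 5.42% of all genes), the fibroblast-like Tumor against DCIS 1 (10.7%) and the endothelial-like Tumor against Prepuberty 2 (14.6%). Deviations of same-numbered libraries correlated at -0.0454 to 0.089 in epithelial-like, 0.177 to 0.32 in fibroblast-like, 0.0078 to 0.354 in endothelial-like and 0.0276 to 0.139 in macrophage-like cells, and since the labels tie a number to no shared animal or day and there are only 2 numbers, they were read as a shared number only.

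Leaving out each library gave 0 to 8 calls for epithelial-like Tumor against DCIS (0% to 14.4% of all genes) and against Prepuberty (0% to 17.0%), and 0 to 6 for fibroblast-like Tumor against DCIS (0% to 16.8%). Endothelial-like cells gave 0 to 5 for Tumor against DCIS (5.79% to 11.6%) and 0 to 2 for Tumor against Prepuberty (5.79% to 10.8%). Macrophage-like cells gave 0 to 4 (0.511% to 11.3%) and 0 to 3 (2.49% to 9.31%). Epithelial-like cells gave 0 to 9 against fibroblast-like (26.1% to 43.4%), 6 to 14 against endothelial-like (33.6% to 46.0%) and 6 to 11 against macrophage-like cells (38.9% to 47.6%). Where a state then had 1 library, its spread was taken from the other states.

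The direction of summed levels between Prepuberty and the later states depended on TMM scaling in fibroblast-like and macrophage-like cells. In epithelial-like cells the unscaled sums of nuclear genes in DCIS and Tumor (8100.4 and 11554) were 9121 and 9883 with TMM scaling, and the mitochondrially encoded sum in DCIS (2407) was 2712 with it and 2308 at the 5% limit. The Prepuberty ratio of both sums was 0.575 at the 5% and 0.615 at the 20% limit. The 5% limit removed 8.08%, 4.67%, 9.12%, 8.28%, 14.2% and 21.3% of cells from Prepuberty 1 and 2, DCIS 1 and 2 and Tumor 1 and 2, and the 20% limit 1.73%, 0.711%, 1.42%, 0.855%, 3.13% and 4.90%.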

Other observations

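The remaining cell classes did not have 10 cells in all 6 libraries and were not compared between states. Myoepithelial-like cells, found in the 4 gland libraries, had 6181 to 10023 unscaled nuclear complex I CPM and a ratio of mitochondrially encoded to nuclear UMIs of 0.647 to 0.903. T cell-like cells of 5 libraries had ratios of 0.339 in DCIS 1 to 1.11 in Tumor 2. Schwann-like cells of 4 libraries had 8017 to 10066.5 nuclear CPM.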
